A study of Mus musculus with 10 samples.

Results

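Described here are 47 genes of DNA break repair, the Fanconi pathway and the checkpoint that watches over damaged DNA, in RNA from sorted mouse lung endothelial cells. They are the rows of the count table, of 55385 in all, whose Ensembl identifier carries 1 of 47 listed mouse symbols for homologous recombination, Fanconi, checkpoint kinase and end-joining genes. All 47 were found and all 47 passed the filter on low counts, which left 17997 genes in the test. The study compared 5 libraries with 5. Every animal was of the strain Cdh5.iCreERT2xTnfsf10Lox/Lox, homozygous for loxP-flanked Tnfsf10 (genotype Tnfsf10 L/L), the gene of the death ligand TRAIL. Controls were Cdh5.Cre W/W, without the Cre transgene. The other group, labelled EC-TRAIL KO, was Cdh5.Cre Tg/W, so it carried a Cre recombinase that tamoxifen activates and that the promoter of the endothelial gene Cdh5 drives. Per the labels' protocols, mice were 8 to 14 weeks old and received 1 mg of tamoxifen a day for 5 or 10 days, in text that is the same for both groups. The design text names 4 transgenic animals where the labels and the table hold 5, and all 5 were used. Cre transgene and deletion cannot be told apart in this design. Whether every library is a separate mouse is not in the labels. The p-values therefore rest on library-to-library spread, which may be technical.

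Cells mend a broken chromosome in several ways. In homologous recombination the MRE11, RAD50 and NBN complex and EXO1 trim the ends, BRCA1, PALB2 and BRCA2 prepare the trimmed strand, further factors such as the RAD54 proteins help it pair with the sister chromatid, and BLM, GEN1 and MUS81 undo the joint molecules. The Fanconi proteins remove crosslinks between the strands by tagging FANCD2 and FANCI with ubiquitin. Ku and DNA-PKcs rejoin ends directly at any cell cycle stage, while recombination needs a sister copy, and many of its genes are known to be transcribed mostly in S and G2 phase.

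Library totals were 34435835 to 56897822 expected counts for controls and 29806083 to 34702571 for the EC-TRAIL KO group, so depth differed with the group (p = 0.0159, exact permutation test, two-sided). Endothelial identity was read from 9 markers, 0 of which passed, with sums of 10610 to 12240 CPM (counts scaled by the library total and its TMM factor) for controls and 10530 to 12350 for the EC-TRAIL KO group. Pecam1 averaged 2182 and 2357 CPM, Cdh5 3822 and 4038, and Tek, the angiopoietin receptor, 1184 and 1019 (log2 fold change -0.22, unadjusted p = 0.0210 and adjusted p = 0.764 in edgeR). The alveolar surfactant gene Sftpc averaged 4377 ± 1045 CPM over the controls and 4064 ± 472 over the EC-TRAIL KO group (SD, n = 5 each). Tnfsf10 had 374, 370, 298, 323 and 305 CPM in controls 1 to 5 and 199, 318, 126, 169 and 81.0 in libraries labelled EC-TRAIL KO 1 to 5, and replicate 2 of the latter lay within the control range. The log2 fold change of Tnfsf10 was -0.90 (edgeR unadjusted p = 0.00664 and adjusted p = 0.425). For its log2 CPM an exact two-sided permutation test gave p = 0.0238. Without replicate 2 of the EC-TRAIL KO group the log2 fold change was -1.21 (edgeR adjusted p = 0.0345). The members that differed most are given also without it.

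The promoters of 39 of the 47 genes were in the RefSeq promoter table (GRCm38), each from 250 bases before to 50 after the start. For each member 1 promoter was taken, the nearest to its annotated gene start, and the 32851 were not reduced in this way. The promoter taken lay 65533 bases from the gene start in Fancc, 28534 in Xrcc6 and 2092 in Slx4. The letters CCAAT, the core of the NF-Y motif that many cell cycle promoters carry, were present on either strand in 22 of 39, against 37.4% of the 32851 promoters in the table. E2F letters (TTTGGCGC, TTTCCCGC, TTTCGCGC or TTTGCCGC) were in 8 of 39, against 2.26%, and the CHR letters TTTGAA in 3 of 39, against 17.9%. No letters of one motif contain those of another. A match is only a description of the letters. The stretches below are those of 5 of the genes with the largest differences and, for contrast, of Mdc1, the member with the highest level per length and a log2 fold change near 0. Each runs 5′ to 3′ on the gene's strand and ends on the base before the start. Capitals mark CCAAT on either strand, so that it also reads ATTGG, and in Mdc1 also TTTCCCGC. The Gen1 stretch (chr12:11265808-11265885, minus strand) is short because Smc6 begins on the other side, and the others lie at chr11:101551956-101552105 (Brca1, minus), chr11:86201194-86201343 (Brip1, minus), chr6:126939588-126939737 (Rad51ap1, minus), chr1:134962415-134962564 (Ube2t, plus) and chr17:35841348-35841497 (Mdc1, plus).
Gen1: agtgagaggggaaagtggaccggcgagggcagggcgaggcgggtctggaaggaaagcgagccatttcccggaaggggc
Brca1: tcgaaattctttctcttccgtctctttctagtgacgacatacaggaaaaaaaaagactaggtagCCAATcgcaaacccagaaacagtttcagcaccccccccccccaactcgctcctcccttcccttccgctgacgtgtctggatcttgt
Brip1: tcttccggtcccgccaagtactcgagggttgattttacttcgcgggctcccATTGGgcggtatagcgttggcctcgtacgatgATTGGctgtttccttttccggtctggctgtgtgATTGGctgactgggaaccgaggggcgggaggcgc
Rad51ap1: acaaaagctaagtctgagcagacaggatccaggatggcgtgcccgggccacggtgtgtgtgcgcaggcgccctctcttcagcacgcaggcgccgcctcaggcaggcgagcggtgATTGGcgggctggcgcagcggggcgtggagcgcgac
Ube2t: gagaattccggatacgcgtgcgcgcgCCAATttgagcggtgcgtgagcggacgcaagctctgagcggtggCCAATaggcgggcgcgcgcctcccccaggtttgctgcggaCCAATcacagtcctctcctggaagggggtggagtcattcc
Mdc1: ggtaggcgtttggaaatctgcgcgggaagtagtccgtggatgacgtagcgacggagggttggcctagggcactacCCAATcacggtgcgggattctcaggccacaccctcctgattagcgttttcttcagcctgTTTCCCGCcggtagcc
Brip1 and Ube2t held 3 copies of CCAAT each in these stretches, and Gen1 held none. CCAAT was found at both ends of the range of differences. Of the 9 promoters of members with a log2 fold change of at least 1, 6 held CCAAT and 0 held E2F letters, and of the 19 promoters of members within 0.2 of 0, 12 held CCAAT and 3 held E2F letters. TTTGAA was in 2 of the 9 and in 0 of the 19.

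One member passed the test, and it rose. Gen1, the nuclease that cuts Holliday junctions, was 3.58-fold higher in EC-TRAIL KO than in control libraries (edgeR quasi-likelihood test, Benjamini-Hochberg adjusted p = 0.0432). No member fell. Over all tested genes 0.439% were called higher and 0% lower, and 1 call among 47 members says little against that share. At an unadjusted p under 0.05, 18 of 47 members were higher and 0 lower, where 3.81% of all genes were higher and 1.32% lower. In 9 of 47 members every library labelled EC-TRAIL KO lay above every control, against 1.38% of all tested genes, and in 0 members did every one lie below. The median log2 fold change was 0.15 over the 47 members and -0.0085 over all genes tested. Around that median the members ran from -0.16 to 1.84. There were 12 members at a log2 fold change of 1 or more (1.29% of all genes were), 24 within 0.2 of 0 (76.3% of all genes) and 11 between these, none of them below -0.2.

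**Figure D1:**
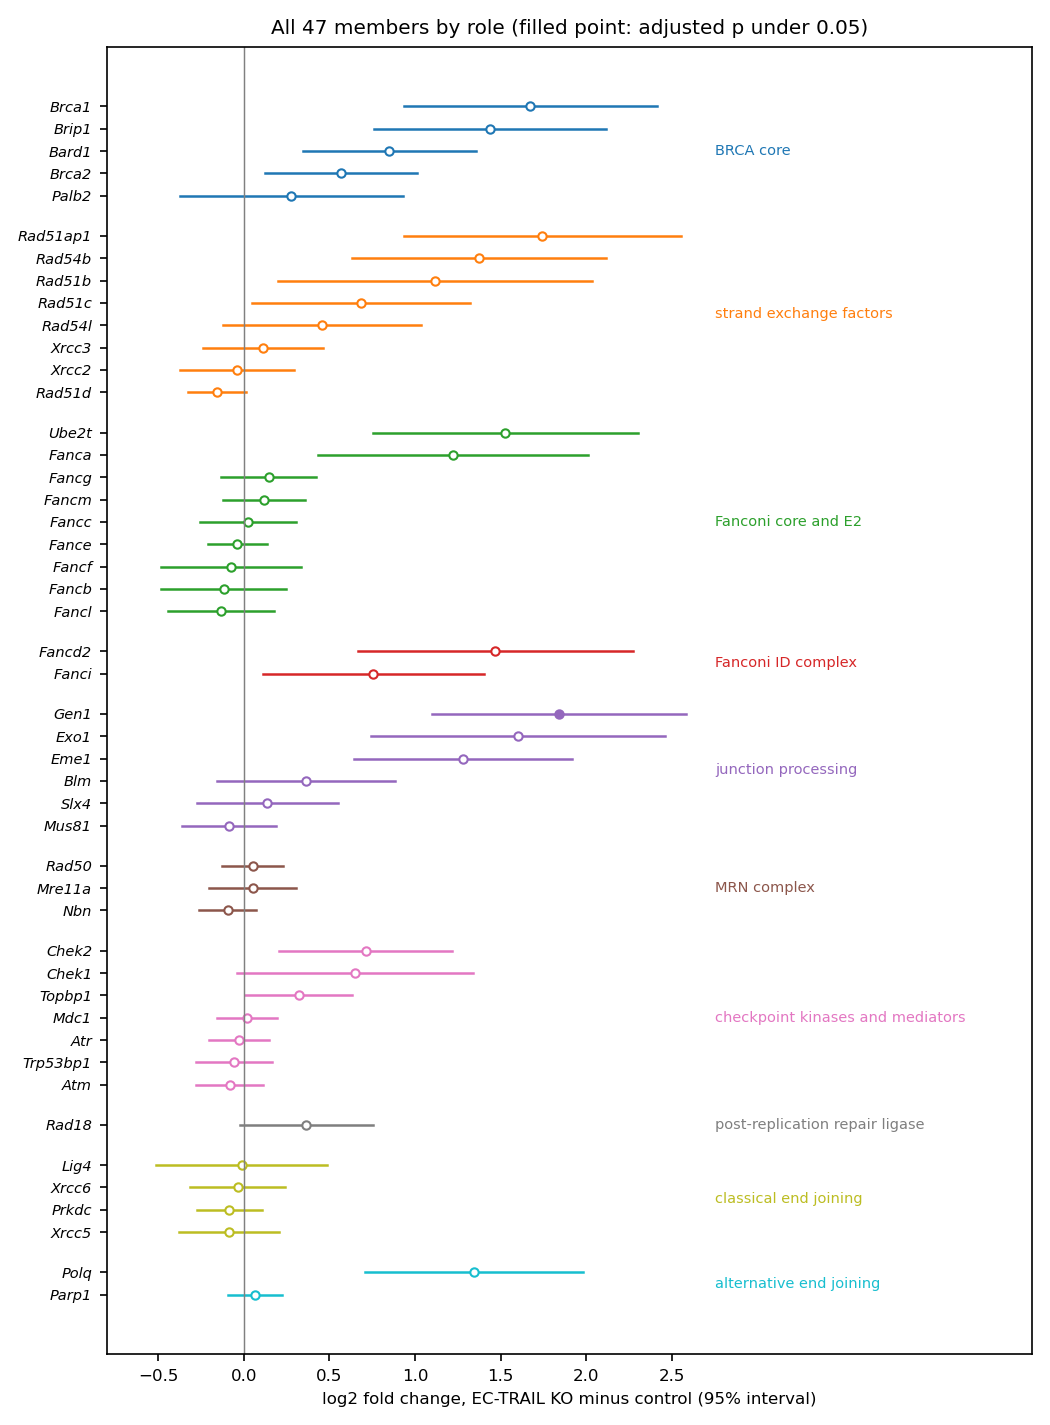
Log2 fold change (EC-TRAIL KO minus control) of each of the 47 members with its 95% interval, grouped by role; a filled point has an adjusted p under 0.05. Gen1 is the single filled point, and the MRN complex and classical end joining genes all sit within 0.2 of 0.

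BRCA1 and the proteins it works with were measured through 5 genes, and all 5 had a log2 fold change above 0 (median 0.85), none passing. Brca1, an E3 ligase that acts in recombination (ENSMUSG00000017146, GRCm38 chromosome 11, 101488764 to 101551955, minus strand), had 2.44, 3.21, 2.91, 3.53 and 2.07 CPM in controls 1 to 5 and 4.61, 17.8, 8.73, 9.47 and 4.71 in libraries labelled EC-TRAIL KO 1 to 5. The groups did not overlap, and replicate 2 stood far above the rest. Its log2 fold change was 1.67 (SE 0.340, edgeR adjusted p = 0.0616), and 1.28 without replicate 2. Brip1, the helicase that binds BRCA1 (also called FANCJ), had 1.84 to 2.702 CPM in controls and 3.18 to 11.8 CPM in the other group, and Bard1, the RING partner of BRCA1, 2.95 to 3.89 and 4.03 to 10.2 CPM. Neither pair of ranges overlapped. Brca2, a central mediator of recombination, had 7.51 to 8.996 CPM in controls and 6.86 to 17.4 CPM in the EC-TRAIL KO group, with replicate 1 below all controls. Palb2, the bridge between BRCA1 and BRCA2, had the smallest difference of the group, 0.28 (95% interval -0.37 to 0.93).

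The 8 genes of strand exchange factors ran from -0.16 to 1.74 on the log2 scale. Rad51ap1, which acts in the pairing with the sister duplex (ENSMUSG00000030346, chromosome 6, 126923050 to 126939587, minus strand), had 0.990, 1.05, 0.705, 1.39 and 0.917 CPM in controls and 1.63, 6.77, 2.91, 3.88 and 1.79 in libraries labelled EC-TRAIL KO. All 5 of the latter lay above all controls, and the log2 fold change was 1.74 (SE 0.371, edgeR adjusted p = 0.0773). The DNA translocase gene Rad54b was at 1.37 and the paralog gene Rad51b at 1.12 on the log2 scale, both with overlapping groups, and Rad54b shares 35.8% of its exon bases with Fsbp on the same strand, so its count is uncertain. Rad51b was the lowest member of all, at 0.347 ± 0.151 CPM in controls (SD, n = 5). By contrast the paralog Rad51d, a partner of XRCC2, had 14.9, 17.8, 15.7, 16.6 and 15.4 CPM in controls and 15.4, 14.3, 15.01, 13.4 and 14.0 CPM in the EC-TRAIL KO group. It had the most negative log2 fold change of the 47 (-0.16, 95% interval -0.33 to 0.01; edgeR adjusted p = 0.997), and its groups overlapped. Xrcc2 and Xrcc3 were at -0.041 and 0.11, Rad51c at 0.68 and Rad54l at 0.46, none passing. Members of the same paralog family thus spanned -0.16 to 1.12, a spread that was not tested.

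The Fanconi core complex, which ubiquitinates FANCD2, and its partner enzyme were measured through 9 genes, 0 of them passing. Ube2t, the ubiquitin-conjugating enzyme of the pathway, had 0.742, 1.00, 0.748, 0.455 and 0.444 CPM in controls and 1.02, 3.78, 1.96, 1.71 and 1.46 in libraries labelled EC-TRAIL KO. The lowest of the latter stood just above the highest control, and the log2 fold change was 1.53 (SE 0.356, edgeR adjusted p = 0.126). Fanca, a core subunit, was at 1.22 with overlapping groups, and it shares 10.5% of its exon bases with Zfp276 on the opposite strand. The other 7 core genes lay between -0.13 and 0.15. Among them Fancl, the ubiquitin ligase subunit, had 3.44, 3.96, 3.74, 3.36 and 4.44 CPM in controls and 2.92, 4.15, 3.23, 3.79 and 3.22 CPM in the other group, and Fancb 9.88, 11.4, 11.9, 7.31 and 9.49 against 11.1, 9.32, 11.1, 6.58 and 8.00 CPM. Both ranges overlapped widely (log2 fold changes -0.13 and -0.12, edgeR adjusted p = 0.997 each). Fancm, the DNA translocase that anchors the core to DNA, was at 0.12 (95% interval -0.12 to 0.36).

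FANCD2 and FANCI form the clamp that receives the ubiquitin. Fancd2 had 1.41, 1.495, 1.00, 1.56 and 1.33 CPM in controls and 1.58, 7.86, 3.40, 3.94 and 2.12 in libraries labelled EC-TRAIL KO. Replicate 1 of the latter, at 1.58 CPM, was barely above the highest control, and replicate 2 was the highest of all. The log2 fold change was 1.47 (SE 0.369, edgeR adjusted p = 0.180). Fanci was at 0.76 (95% interval 0.11 to 1.40, edgeR adjusted p = 0.809), and it shares 16% of its exon bases with Polg on the opposite strand.

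Among the 6 genes that trim ends or undo joint molecules, Gen1 (ENSMUSG00000051235, chromosome 12, 11238920 to 11265801, minus strand) had 0.666, 1.02, 0.598, 0.694 and 0.917 CPM in controls 1 to 5 and 1.40, 5.44, 2.94, 2.22 and 1.99 in libraries labelled EC-TRAIL KO 1 to 5. The lowest of the latter was above the highest control. Controls averaged 0.779 ± 0.180 CPM and the other group 2.80 ± 1.58 (SD, n = 5 each). On the log2 scale the difference was 1.84 (SE 0.342). Without replicate 2 of the EC-TRAIL KO group it was 1.46 and still passed (edgeR adjusted p = 0.0349); Gen1 was then again the 1 member called, where 0.476% of all genes were called higher and 0.00548% lower. DESeq2 called 12 members higher and 0 lower, where it called 1.16% of all genes higher and 0.0167% lower. Gen1 did not pass with limma-voom (adjusted p = 0.144), nor in edgeR with library size only (adjusted p = 0.0501) or its newer estimation (adjusted p = 0.0512). The call was lost without any 1 of the 5 controls or replicate 3 or 4 of the EC-TRAIL KO group (log2 fold changes 1.75 to 1.96, edgeR adjusted p = 0.0980 to 0.168). Eme1, the partner of MUS81, had 0.799 to 1.26 CPM in controls and 1.37 to 4.35 CPM in the other group, without overlap, and Exo1, the resection exonuclease, 0.533 to 1.05 and 0.996 to 4.68 CPM, with replicate 5 inside the control range. The log2 fold changes were 1.28 and 1.60 (edgeR adjusted p = 0.113 and 0.168). Mus81 itself, the catalytic partner of EME1, was at -0.084 (95% interval -0.36 to 0.19), Blm, the helicase that dissolves double junctions, at 0.36, and the nuclease scaffold Slx4 at 0.14. The intervals of Eme1 and Mus81 did not overlap (0.64 to 1.91 for Eme1), though the difference between them was not tested. Eme2, from the wider list described below, was at 0.09 (95% interval -0.14 to 0.33). It averaged 24.5 CPM in controls, against 1.02 CPM for Eme1.

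**Figure D2:**
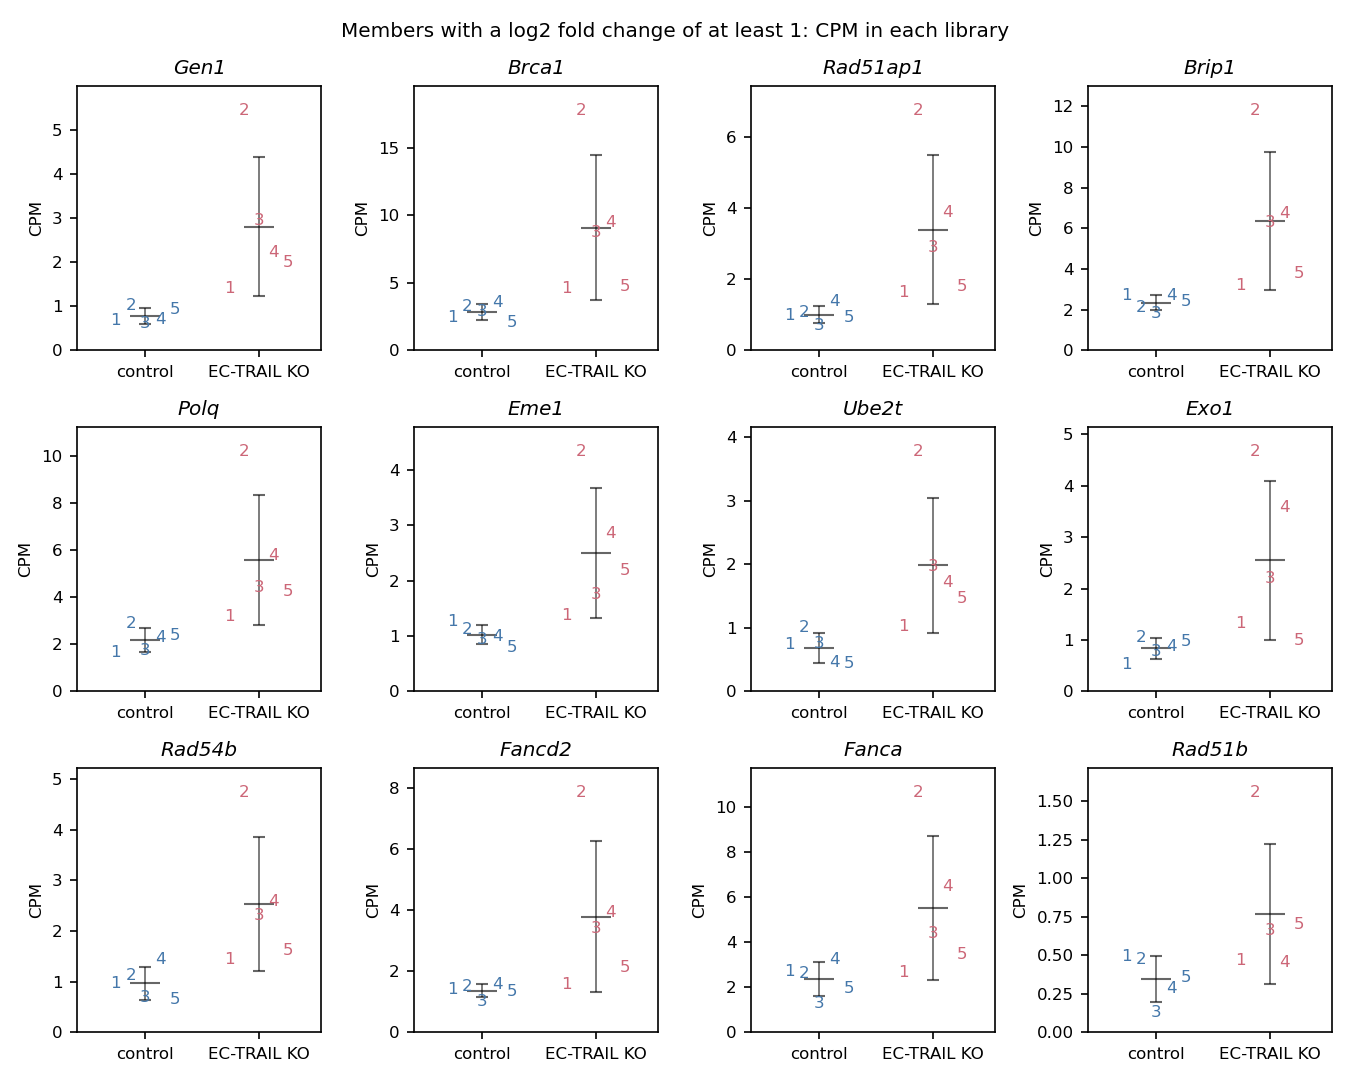
CPM of the 12 members with a log2 fold change of at least 1; each digit is the library with that replicate number, the dash and bar are the mean and SD of 5 libraries, and every axis starts at 0. In all 12 panels the library labelled EC-TRAIL KO replicate 2 is the highest. In 8 of them every EC-TRAIL KO library lies above every control (1.38% of all genes). The 12 were picked by their log2 fold change in these same libraries, which favours both counts.

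The same libraries were high in one gene after another. In all 12 members with a log2 fold change of at least 1, the library labelled EC-TRAIL KO replicate 2 had the highest value of the 10 libraries, and in 10 of the 12 replicates 2, 3 and 4 of that group were the 3 highest. Replicate 2 was also the highest in 30 of all 47 members, in 7 of the 24 members within 0.2 of 0 and in 16.8% of all tested genes. A high replicate 2 itself helps a gene reach a log2 fold change of 1. The 12 are therefore not a like set to all tested genes. Brca1 followed the order 2, 4, 3, 5 and 1 from high to low, and so did the proliferation marker Mki67, at 469, 256, 187, 135 and 86.7 CPM in these libraries and 24.3 to 56.1 CPM in controls. Not every one of the 12 did: Gen1 and Ube2t ran 2, 3, 4, 5 and 1, and Eme1, Exo1 and Rad51b had other orders. In bulk RNA, more cells that express a gene and more RNA per cell cannot be told apart. Of 12 proliferation markers 10 passed and rose (0.439% of all genes did). In all 12 every EC-TRAIL KO library lay above every control (1.38% of all genes). Their summed level was 58.1 to 122 CPM in controls and 179 to 931 CPM in the other group, with 931 CPM in replicate 2. Of 15 replication and S phase markers 1 passed, Rrm2, the ribonucleotide reductase subunit. All 15 were above 0 (median log2 fold change 0.68), but Pcna only at 0.03 (95% interval -0.11 to 0.18). The part of these markers in the members' differences was not tested. Without replicate 2 the 12 members were still at 0.70 to 1.46 on the log2 scale, with Rad51ap1 at 1.33, Ube2t at 1.16, Brip1 at 1.09, Fancd2 at 1.02 and Polq at 1.01, and among the 12 Gen1 alone passed. That library is also the one whose Tnfsf10 lay in the control range.

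**Figure D3:**
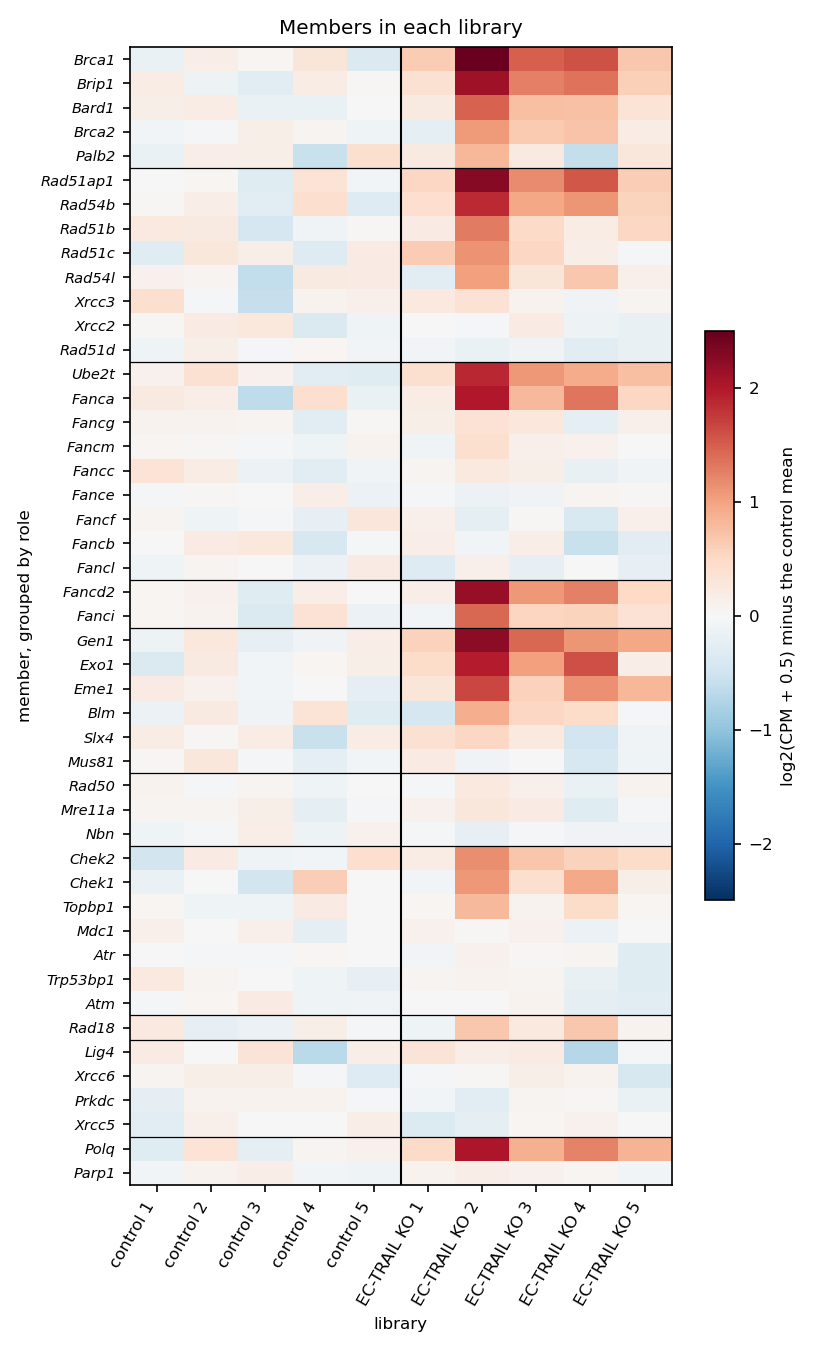
Log2(CPM + 0.5) minus the control mean for the 47 members (rows, by role, with lines between the roles) in the 10 libraries (columns). Red is above and blue below the control mean, and the column of EC-TRAIL KO replicate 2 is the reddest in the rows of Brca1, Rad51ap1, Fancd2 and Gen1, while the MRN rows stay pale.

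Of the 7 checkpoint kinases and mediators, 4 lay within 0.2 of 0, where 76.3% of all genes did. None of the 7 passed (0.439% of all genes were called higher). Chek2, the kinase that ATM activates, had 1.77, 3.09, 2.39, 2.45 and 3.67 CPM in controls and 3.03, 6.44, 4.52, 4.12 and 3.75 in libraries labelled EC-TRAIL KO. Replicate 1 of the latter lay within the control range, and the log2 fold change was 0.71 (SE 0.233, edgeR adjusted p = 0.520). Chek1, the kinase that ATR activates, was at 0.65 (95% interval -0.04 to 1.34), and Topbp1, the activator of ATR, at 0.32 (95% interval 0.0089 to 0.63) with 90.7 CPM in replicate 2 against 47.8 to 59.4 CPM in controls. The apical kinases themselves, Atm and Atr, were at -0.082 (95% interval -0.28 to 0.11) and -0.028 (95% interval -0.20 to 0.15). Mdc1, the scaffold that binds damaged chromatin, had 93.7, 84.9, 93.6, 73.1 and 84.8 CPM in controls and 92.6, 87.0, 92.2, 77.0 and 86.7 CPM in the other group, a log2 fold change of 0.02 (95% interval -0.16 to 0.19) whose sign turned without control replicate 4 or EC-TRAIL KO replicate 1 or 3. Trp53bp1, which steers breaks to end joining, was at -0.054. The MRN complex did not differ beyond the spread either. Nbn had 26.5, 27.5, 32.0, 26.0 and 30.6 CPM in controls and 27.4, 24.7, 27.9, 26.7 and 26.7 in libraries labelled EC-TRAIL KO, with overlapping groups and a log2 fold change of -0.094 (95% interval -0.26 to 0.07), and Rad50 and Mre11a were both at 0.05. Rad18, the ligase that marks PCNA at stalled forks, had 7.10, 5.06, 5.30, 6.59 and 5.65 CPM in controls and 5.40, 9.75, 7.06, 9.74 and 6.34 CPM in the other group. Its replicates 2 and 4 were above all controls and replicate 1 was among them (log2 fold change 0.37, edgeR adjusted p = 0.997).

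End joining was measured along a classical and an alternative route. The 4 genes of the classical route were between -0.087 and -0.013, 0 of them passing. Prkdc, which encodes DNA-PKcs, had 31.1, 38.5, 38.6, 38.6 and 35.8 CPM in controls and 34.8, 30.1, 38.1, 36.9 and 32.2 in libraries labelled EC-TRAIL KO. Replicate 2 of the latter lay below all controls and the other 4 within their range (95% interval of the log2 fold change -0.27 to 0.10). The Ku genes Xrcc5 and Xrcc6 were at -0.087 and -0.034, and the ligase gene Lig4 at -0.013 (95% interval -0.51 to 0.49). Polq, the polymerase of the alternative route that joins ends at microhomologies, had 1.66, 2.87, 1.75, 2.28 and 2.37 CPM in controls and 3.18, 10.2, 4.41, 5.77 and 4.25 CPM in the other group. No library overlapped, and the log2 fold change was 1.34 (SE 0.293, edgeR adjusted p = 0.0861). Parp1, an abundant break sensor placed with it, had 39.5, 43.9, 46.2, 39.7 and 38.2 CPM in controls and 44.1, 46.5, 44.4, 42.7 and 39.5 CPM in the other group, at 0.07 (95% interval -0.09 to 0.22).

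The level of a gene in controls went with its difference between the groups. Of the 17 members under 0.5 CPM per kb of merged exon in controls, 17 had a log2 fold change above 0 and 12 one of at least 1 (median 1.34), whereas among all 3544 tested genes under that level 3.92% reached 1 and the median was -0.022. Of the 24 members above 1 CPM per kb, 0 reached 1 (0.333% of all genes at that level), and they ran from -0.16 to 0.37 (median -0.031). The 3 highest per kb of exon were Mdc1 (11.6 CPM per kb in controls), Nbn (11.3) and Parp1 (7.84), and the 3 lowest were Rad51b (0.0924), Exo1 (0.0997) and Gen1 (0.100). Both limits were chosen after the values were seen, and the control level enters both quantities. The members at 1 or more had 0.347 to 2.83 CPM in controls, so their differences are the less precise ones.

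**Figure D4:**
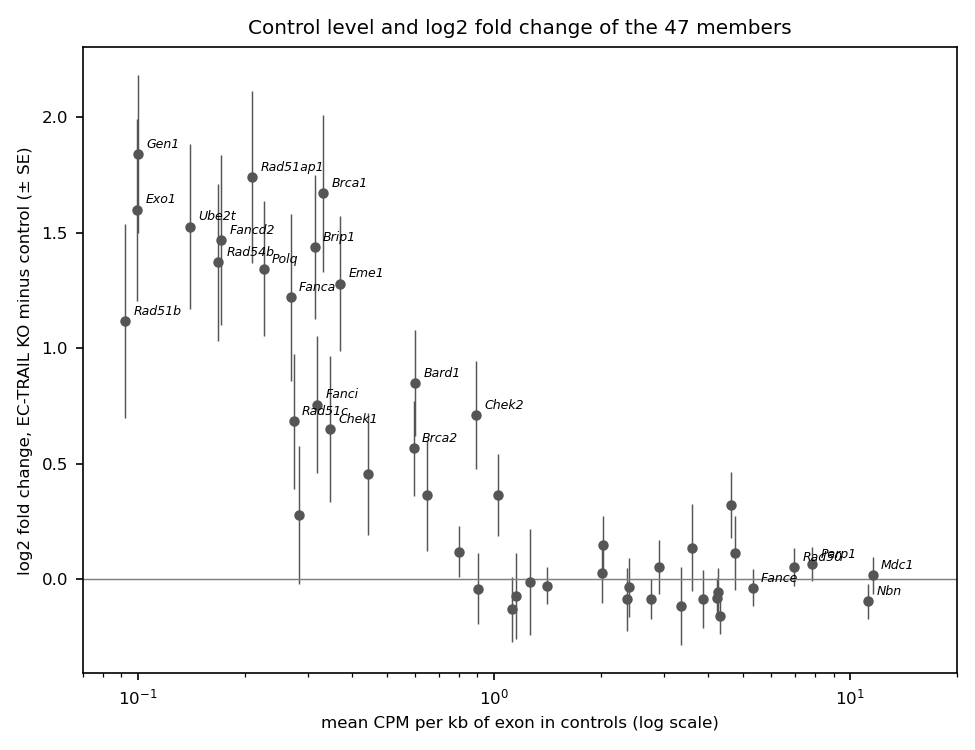
Mean CPM per kb of exon in controls (log axis) against the log2 fold change with its SE (vertical bars), 1 point per member. The 12 members at 1 or more all lie under 0.5 CPM per kb, and Mdc1, Nbn and Parp1 at the right lie near 0.

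Some of these genes start head to head with another gene and share the stretch between them. A protein-coding gene on the other strand began within 1000 bases upstream of 15 of the 47 members, and 14 of these neighbours were tested. None of the 14 passed (edgeR adjusted p of at least 0.955), which says little where 0.439% of all genes were called higher and 0% lower. Their log2 fold changes ran from -0.23 to 0.30 with a median of 0.02. Smc6, a subunit of the SMC5/6 complex, begins 85 bases from Gen1 and was at 67.7 ± 6.22 CPM in controls and 72.3 ± 5.34 in the other group (SD, n = 5 each; log2 fold change 0.09, 95% interval -0.07 to 0.26), against 1.84 for Gen1. Nbr1, 194 bases from Brca1, was at -0.055 (95% interval -0.23 to 0.12), and Emc3, 30 bases from Fancd2, at 0.07 (95% interval -0.07 to 0.20). For these 3 pairs the intervals of member and neighbour did not overlap, though the difference was not tested. Mcm4, a subunit of the replicative helicase, begins 466 bases from Prkdc and was at 0.30 (95% interval -0.02 to 0.63), with Prkdc at -0.084.

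**Figure D5:**
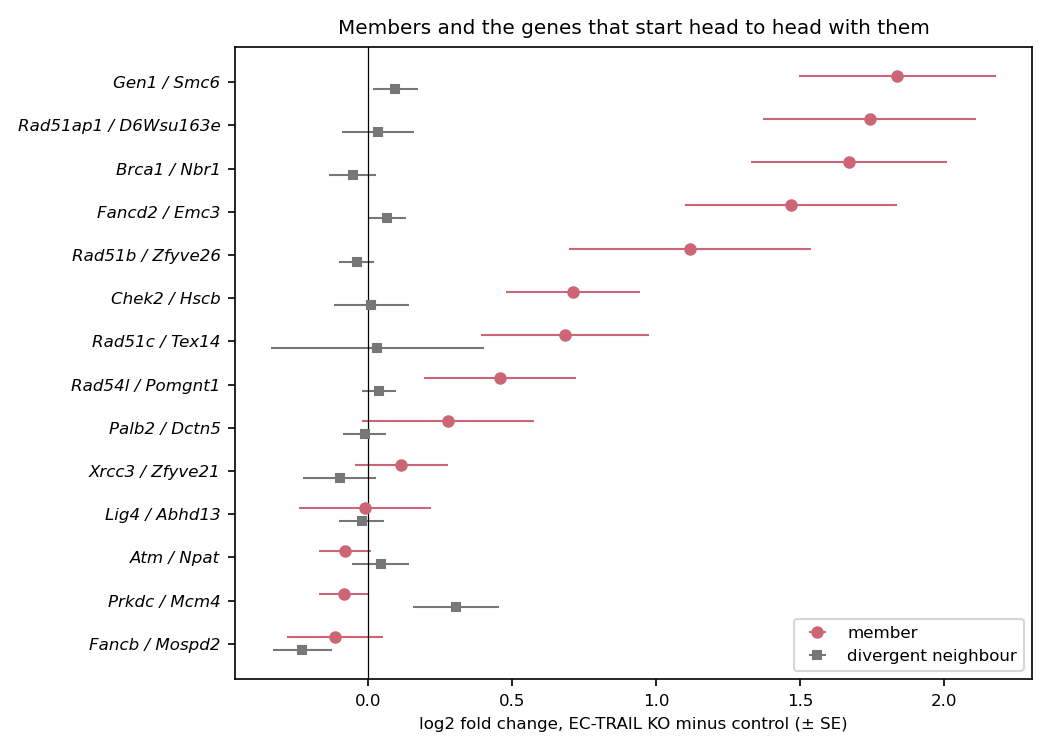
Log2 fold change with SE of 14 members (circles) and of the protein-coding gene that starts head to head with each (squares). Circles range from Fancb (-0.12) at the bottom to Gen1 (1.84) at the top, while all squares lie between -0.23 and 0.30.

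The wider pathway was read from a list of other genes. Of 82 other break repair and Fanconi genes, 81 were matched and tested (Shld3 was not matched), and 0 passed (edgeR; 12 higher and 0 lower at an unadjusted p under 0.05). The median log2 fold change was 0.05, and in 6 every library labelled EC-TRAIL KO lay above every control (7.41%, against 1.38% of all genes). Among those with the smallest p were Clspn, which encodes the CHK1 adaptor claspin, H2afx, the histone variant phosphorylated at breaks, and Fignl1, an AAA ATPase gene of recombination. Clspn was at 2.07 (edgeR adjusted p = 0.0556), H2afx at 0.63 (0.0603) and Fignl1 at 1.66 (0.0906). Of 12 p53 targets, 11 had a log2 fold change above 0 (median 0.33). At an unadjusted p under 0.05, 6 of them were higher and 0 lower (3.81% and 1.32% of all genes). In 3 every library labelled EC-TRAIL KO lay above every control (1.38% of all genes). Eda2r, a receptor of the TNF receptor family, and Bax, which promotes apoptosis, passed and rose (log2 fold changes 1.97 and 0.39, edgeR adjusted p = 0.0432 each), and Cdkn1a, the p53-induced cell cycle inhibitor, was at 0.08. Summed markers of alveolar epithelium were 7989 to 12090 CPM in controls and 6664 to 9616 CPM in the other group. Fibroblast markers summed to 519 to 713 and 448 to 741 CPM, leukocyte markers to 71.9 to 101 and 73.2 to 94.7 CPM and pericyte and smooth muscle markers to 339 to 456 and 271 to 424 CPM, and no gene of these 4 lists was at 0 in every library. None of their tested genes passed, but only 7 of the 12 leukocyte markers were tested. Replicate 2 had the lowest sum of the EC-TRAIL KO group in all 4 lists (6664, 448, 73.2 and 271 CPM in the order given) and the highest for the endothelial markers (12350 CPM). Their part in the members' values was not tested.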

How the data were processed

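RNA of sorted lung endothelial cells was sequenced in 5 control and 5 EC-TRAIL KO libraries, grouped by their titles. STAR 2.7.1a, RSEM 1.2.28 and GRCm38 are named in the submitters' processing notes, and the authors deposited expected counts per gene without normalization; 81.2% of the values are whole numbers. No source used here gives the annotation release or the strand setting, so reads of genes that overlap on opposite strands may not be told apart (20 of the 47 members share exon bases with another gene). At least 10% of exon bases is shared with 1 gene in 8 members: Rad54b, Rad54l, Fanca, Fancc, Fancf, Fancl, Fanci and Trp53bp1. Eme1 shares 8% with Lrrc59. Symbols, positions and exon lengths came from GENCODE of the same build, in which 55144 of 55385 identifiers matched without version.

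Expected counts were rounded and fitted in R 4.3.3 with edgeR 4.0.16: filterByExpr (minimum count 10), TMM factors, and the quasi-likelihood F-test with group as the only term. The default estimation of this edgeR version is its legacy one. Benjamini-Hochberg adjustment ran over 17997 genes, with a threshold of 0.05. The SE of a log2 fold change is its size over the square root of F, and the 95% interval uses the test's degrees of freedom. The median log2 fold change of all genes was -0.0085. Precision is limited by 5 libraries a group and by low counts in members under 1 CPM. No pair of libraries was closer than a chi-square of 20.6 per degree of freedom, far above sampling noise. The fit was also run on simulated counts, drawn independently for each gene, with changes only in genes at a mean CPM of at least 1. Such counts hold no rise shared by many genes in the same libraries, so that run cannot test this feature.

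The members, the lists and the tests were chosen with earlier results of these data known. Values by library are given for members that passed, the member with the smallest p in each role, the 3 most negative and the 3 highest per kb of exon; Brip1, Bard1, Eme1, Exo1 and other members in ranges were added after their values were seen. Alternatives were RLE factors, library size only, DESeq2 1.42.0, limma-voom (limma 3.58.1), the legacy estimation, counts not rounded, a filter at a mean CPM of 1, no low-count filter, the replicate number as a block and each library left out. The newer estimation was added after seeing the data. A further gene of the wider list enters its counts and is not named here.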

Additional observations from a re-analysis of the deposited data

Results flagged for a closer look

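Values were examined for single libraries far from the rest of their group, over 96 groups of 5, and 4 were found; chance gives about 1 in 20 groups. Rad51b was at 1.56 CPM in the library labelled EC-TRAIL KO replicate 2, where the others of that group were at 0.451 to 0.697 CPM. Rad54l was at 2.01 CPM in control replicate 3, against 3.52 to 4.01 CPM in the other controls. Control replicate 4 was low in 2 members, with Fancg at 6.31 CPM against 7.81 to 8.22 CPM and Slx4 at 18.3 CPM against 27.4 to 30.7 CPM.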

How the results depend on the processing

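The number of members called higher was 1 in the full comparison and depended on the setting. It was 12 with DESeq2 (Gen1, Brca1, Rad51ap1, Brip1, Polq, Eme1, Ube2t, Exo1, Fancd2, Rad54b, Bard1 and Fanca), 5 without a low-count filter and 0 with library size only, limma-voom or the newer estimation, where Gen1 had adjusted p = 0.0501, 0.144 and 0.0512; the cause was not tested. With each library left out in turn it ran from 0 to 8: 8 without EC-TRAIL KO replicate 1, 5 without replicate 5, 1 without replicate 2 and 0 without replicate 3, replicate 4 or any control. No member was called lower in any of the 20 alternatives, of which the legacy estimation only repeats the main fit. Genes called higher numbered 79 in full, 208 with DESeq2, 141 without the filter, 2 with library size only or limma-voom, and 2 to 154 with a library left out; genes called lower numbered 3 with DESeq2, 2 without the filter and 0 to 1 with a library left out. With the replicate number as a block 5 members (Polq, Brca1, Gen1, Ube2t and Rad51ap1), 146 genes higher and 3 lower were called. Same-numbered libraries' deviations correlated at 0.0679 to 0.433, and 4 of the 5 numbers matched best with themselves, but nothing in the labels pairs them. Tnfsf10 ran from -1.21 to -0.72 with a library left out. The sign held in 36 members and turned in 11 in at least 1 of these fits, which gave -0.012 to 0.23 for Xrcc3, -0.10 to 0.011 for Trp53bp1, -0.074 to 0.0077 for Fance, -0.0091 to 0.13 for Mre11a, -0.14 to 0.018 for Fancf, -0.063 to 0.035 for Atr, -0.11 to 0.050 for Xrcc6, -0.13 to 0.030 for Xrcc2, -0.035 to 0.059 for Mdc1, -0.042 to 0.12 for Fancc and -0.16 to 0.14 for Lig4.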
